A study of Mus musculus with 10 samples.

Results

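The 10 genes described here encode receptors, signal carriers and brakes of the bone morphogenetic protein (BMP) pathway: the receptors Bmpr1a, Bmpr2 and Acvr2a, the Smads Smad1, Smad5, Smad4, Smad6 and Smad7, and the ubiquitin ligases Smurf1 and Smurf2. They were taken by symbol and matched by Entrez ID, and all 10 were found among the 27179 genes counted. They were measured in effector memory (EM) γδ T cells, the CD62L- CD44+ fraction of CD3+ γδTCR+ splenocytes, sorted from 5 pre-exposed and 5 naïve female C57BL/6 mice, with 1 RNA-seq library per mouse. Pre-exposed mice had been infected intravenously at 6 to 8 weeks of age with 50000 red blood cells carrying Plasmodium chabaudi, a rodent malaria parasite. All mice of both groups, infected or not, received chloroquine and pyrimethamine, on day 14 after infection or at the equivalent time, and the spleens were removed 12 weeks after the end of this treatment. The naïve mice thus differed from pre-exposed mice in the infection but not in the drugs, and the cells were profiled at rest, without stimulation.

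In this pathway a dimeric BMP ligand brings together type I receptors, such as Bmpr1a, and type II receptors, such as Bmpr2 and Acvr2a, and the type II kinase activates the type I kinase. The type I kinase phosphorylates Smad1 and Smad5, which bind Smad4 and enter the nucleus to regulate target genes such as the Id genes. Smad6 and Smad7 block the pathway at the receptors and at Smad4, and Smurf1 and Smurf2 mark receptors and Smads for degradation. Smad4, Smad7, Acvr2a and Smurf2 also serve the related TGFβ and activin branches, and TGFβ signalling restrains T cells and is needed for their residence in epithelia.

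Promoter windows of 300 bases, 250 before and 50 after a transcript start, were taken from RefSeq on GRCm38.p6 for 8 of the 10 genes (Bmpr1a, Bmpr2, Acvr2a, Smad1, Smad5, Smad6, Smurf1 and Smurf2), with 10 windows in all since Smad5 has 3 starts. Both words searched are palindromes, so 1 search covers both strands, and they do not overlap each other. GGCGCC is a GC-rich element that BMP-activated Smads can bind, and GTCTAGAC is the palindromic Smad-binding element. The Bmpr1a window is shown because this receptor had the lowest fold change estimate of the 8 genes tested, and the Smad6 window because it was the only one of the 10 windows holding the palindromic element while the gene was almost without reads. Matches are in capitals. The Bmpr1a window lies at chr14:34502497-34502796 and the Smad6 window at chr9:64022010-64022309, both on the minus strand and written 5′ to 3′ along the gene. The Bmpr1a window falls inside the annotated span of the gene, which reaches to 34503336, so the start used is an internal one.
Bmpr1a: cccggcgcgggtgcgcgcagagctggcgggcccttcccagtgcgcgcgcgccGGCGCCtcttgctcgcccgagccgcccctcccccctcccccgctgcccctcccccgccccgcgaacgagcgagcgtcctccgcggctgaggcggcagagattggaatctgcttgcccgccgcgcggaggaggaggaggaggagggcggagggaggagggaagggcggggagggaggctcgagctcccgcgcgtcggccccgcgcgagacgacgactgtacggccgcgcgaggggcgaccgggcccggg
Smad6: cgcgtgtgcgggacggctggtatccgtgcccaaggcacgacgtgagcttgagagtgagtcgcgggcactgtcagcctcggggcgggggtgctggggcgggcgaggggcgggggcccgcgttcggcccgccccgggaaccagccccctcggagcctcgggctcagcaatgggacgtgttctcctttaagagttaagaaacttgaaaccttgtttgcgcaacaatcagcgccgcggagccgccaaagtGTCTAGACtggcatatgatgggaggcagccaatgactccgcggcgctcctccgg
GGCGCC was present in 5 of the 10 windows, in Bmpr1a, Bmpr2, Smurf2 and 2 overlapping windows of Smad5, against 11.9% of all 32851 mouse promoter windows. GTCTAGAC was present in 1 of the 10, that of Smad6, against 0.213% of all windows. The windows of these genes were GC-rich, with a median GC content of 67.5% against 52.7% over all windows. In Bmpr1a the match began 198 bases before the start, and in Smad6 it began 4 bases before the start and ran across it. These are matches of letters and say nothing about binding in γδ T cells.

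Libraries held 8747888 to 22542832 counts in pre-exposed mice and 6587199 to 19993444 in naïve mice. The libraries did not vary in the same way with gene length: across genes, Spearman's rho between gene length and a library's deviation from the mean log2 level was -0.54 to 0.27 in pre-exposed mice and 0.26 to 0.41 in naïve mice. All 10 genes of the pathway (2971 to 7175 bases counted, median 4886) were longer than the median tested gene (2665 bases). The 3 libraries with the lowest rho were pre-exposed mice 2, 3 and 4, which are also the libraries whose labels name no index pair, so results are also given for these mice and for mice 1 and 5 apart. The label of every naïve library names an index pair. In a comparison of mice 2, 3 and 4 with the naïve mice, infection therefore cannot be told apart from label style or the length trend. Markers of γδ T cells were all present and summed to 4317 to 14822 CPM (counts scaled to a common library size of 1e+06) in pre-exposed mice and 6477 to 11230 CPM in naïve mice. Markers of other cells were higher in some pre-exposed libraries. The 6 αβ T cell markers summed to 1576 to 3289 CPM in pre-exposed and 1642 to 1992 CPM in naïve mice (1 rose). The 6 NK cell markers summed to 606 to 1793 CPM in pre-exposed and 433 to 1080 CPM in naïve mice (2 rose). The 8 dendritic cell markers summed to 120 to 713 CPM in pre-exposed and 90.9 to 140 CPM in naïve mice (5 rose). The 9 monocyte and macrophage markers summed to 46.9 to 1472 CPM in pre-exposed and 35.3 to 160 CPM in naïve mice (5 rose), and the 6 erythroid markers measured to 333 to 2040 CPM in pre-exposed and 79.6 to 460 CPM in naïve mice (4 rose). One library was dominated by few transcripts, that of pre-exposed mouse 5, whose top 10 genes made up 24.7% of its counts, while this share was 5.61% to 9.58% for the rest of the pre-exposed group and 6.62% to 10.2% for naïve mice. The 6 neutrophil markers summed to 1.09 to 226 CPM in pre-exposed mice (226 in mouse 2 and 66.8 in mouse 1) and 0.310 to 20.9 CPM in naïve mice. Of these, 2 were tested and 0 were called. The 7 B cell markers summed to 80.5 to 180 CPM in pre-exposed and 103 to 166 CPM in naïve mice. Of the 4 tested, Ms4a1 and Cd79a rose, and Cd79a had 21.7 and 20.5 CPM in pre-exposed mice 1 and 2, against 0.776 to 2.72 CPM in naïve mice, while Pax5 and Ebf1 had no count in any library. Immunoglobulin genes took 0.345% to 6.68% of the counts in pre-exposed mice (highest in mice 1 and 2) and 0.0845% to 0.737% in naïve mice. The part of these cells in the results below was not tested, and in bulk RNA fewer cells of a type and less RNA per cell cannot be told apart.

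None of the 8 genes tested passed the threshold of an adjusted p of 0.05 in edgeR, where 6.30% of the 12655 tested genes passed, 5.12% higher and 1.18% lower. Bmpr2 and Smad6 had too few counts to be tested. In these cells the log2 fold change of pre-exposed over naïve was below 0 for 7 of the 8 (48.7% of all tested genes were below 0) and above 0 for Smad7, with a median of -0.53 against 0.018 over all tested genes. Bmpr1a and Smad4 were the 2 genes with an unadjusted p under 0.05, a share of the 8 to be read against 24.3% of all tested genes. DESeq2 also called 0 of the 8, where it called 11.2% of the genes to which it gave an adjusted p. Voom with limma and TREAT at a fold of 1.5 called 0 as well, but they called 0.759% and 0.0158% of all tested genes. TREAT with quality weights for the libraries called 0 of the 8 and 2.27% of all tested genes. The study itself, with voom and TREAT at this fold, reported many more called genes than TREAT without weights gave here. The cause of the difference was not tested. The groups overlapped for all 10 genes, where 4.93% of tested genes did not overlap (2.77% with all pre-exposed mice above all naïve mice and 2.17% with all below).

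**Figure D1:**
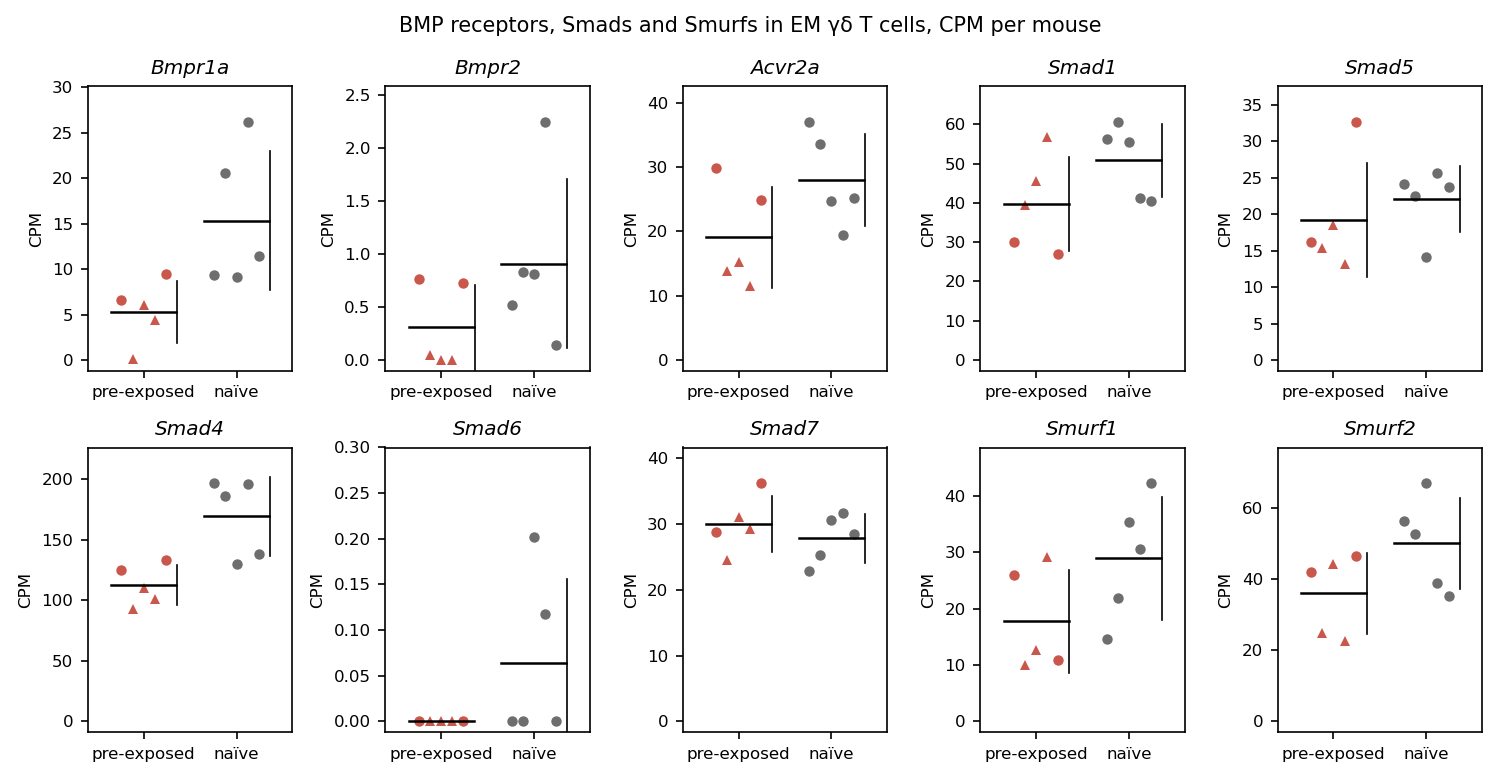
CPM after TMM scaling of each of the 10 genes, with 1 point per mouse, pre-exposed mice on the left in red (triangles for mice 2 to 4, circles for mice 1 and 5) and naïve mice on the right in grey; the horizontal line is the mean and the vertical line ± 1 SD (n = 5 each). The groups overlap for every gene, and Bmpr1a and Smad4 have 4 of 5 pre-exposed mice below the lowest naïve mouse.

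Among the receptors, Bmpr1a (Entrez 12166, GRCm38 chromosome 14, 34411061 to 34503336), the type I receptor for BMP2 and BMP4 (ALK3), was the lowest of the 8 relative to naïve mice. It had 6.56, 0.0973, 6.05, 4.37 and 9.45 CPM in pre-exposed mice 1 to 5, against 9.32, 20.6, 9.15, 26.2 and 11.4 CPM in naïve mice 1 to 5. Pre-exposed mouse 2 had 2 reads of Bmpr1a among 22542832 counts, and pre-exposed mouse 5 alone lay within the naïve range. The log2 fold change was -1.63 (SE 0.61, 95% CI -2.93 to -0.33, edgeR adjusted p = 0.117), which puts the level in pre-exposed mice at 32.4% of the naïve level with an interval of 13.2% to 79.8%. The size of this estimate depended on the method, and voom with limma gave -2.85 (SE 0.91, adjusted p = 0.0851). Without pre-exposed mouse 5 it was -1.98 with an adjusted p of 0.0365, and with mice 2 to 4 alone -2.33 with 0.0105. With mice 1 and 5 alone it was -0.91 (SE 0.55, adjusted p = 0.452). Without pre-exposed mouse 2 it was -1.26 (SE 0.42, adjusted p = 0.147). It was -1.29 (adjusted p = 0.266) when the trend with gene length was removed from each library.

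The type II receptors differed in abundance. Acvr2a (Entrez 11480, chromosome 2, 48814109 to 48903264), which binds activins as well as BMPs, had 29.9, 13.8, 15.2, 11.5 and 24.9 CPM in pre-exposed mice and 37.1, 33.6, 24.8, 19.5 and 25.1 CPM in naïve mice. Pre-exposed mice 2, 3 and 4 were below every naïve mouse, and mice 1 and 5 were inside the naïve range. Its log2 fold change was -0.58 (SE 0.31, 95% CI -1.24 to 0.09, adjusted p = 0.272). With mice 2 to 4 alone it was -1.12 with an adjusted p of 0.00765, and with mice 1 and 5 alone 0.016, without a call. The annotated span of Acvr2a overlaps that of Orc4, a subunit of the origin recognition complex, and Orc4 had 8521 counts in the pre-exposed libraries and 14191 in the naïve libraries, so its reads could add to those of Acvr2a if the counting ignored strand. The strand setting is not given in the sources used here.

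Bmpr2 (Entrez 12168, chromosome 1, 59764279 to 59878081), the dedicated BMP type II receptor, was near the detection limit. It had 0.761, 0.0487, 0, 0 and 0.727 CPM in pre-exposed mice and 0.514, 0.827, 0.807, 2.24 and 0.144 CPM in naïve mice, from 13 counts in all pre-exposed and 55 in all naïve libraries. The 3 lowest values were those of pre-exposed mice 2, 3 and 4, while mice 1 and 5 lay among the naïve mice. The difference in mean CPM was not beyond the spread (two-sided exact permutation test, p = 0.175, where the smallest possible p is 0.00794). The counts cover 3507 bases of Bmpr2, 27.2% of the 12899 bases of its longest GENCODE transcript, while the other 9 genes are counted over 80.8% to 109% of theirs, so the level of Bmpr2 refers to part of the transcript.

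Smad1 and Smad5, the receptor-activated Smads of the BMP branch, were closer between the groups. Smad1 (Entrez 17125, chromosome 8, 79338395 to 79399428) had 30.2, 39.4, 45.5, 56.7 and 27.1 CPM in pre-exposed mice and 56.1, 60.6, 55.6, 41.3 and 40.5 CPM in naïve mice. Here mice 1 and 5, and not mice 2 to 4, were the lowest of the pre-exposed group, and mouse 4 was higher than 4 of the 5 naïve mice. Smad1 had a log2 fold change of -0.35 (SE 0.25, 95% CI -0.89 to 0.19, adjusted p = 0.414), and -0.78 (SE 0.30, adjusted p = 0.237) with mice 1 and 5 alone.

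Smad5 (Entrez 17129, chromosome 13, 56703010 to 56742378) had 16.2, 15.4, 18.5, 13.1 and 32.7 CPM in pre-exposed mice and 24.1, 22.5, 14.2, 25.6 and 23.7 CPM in naïve mice. Pre-exposed mouse 5 had the highest value of all 10, and naïve mouse 3 was below 4 of the 5 pre-exposed mice. For Smad5 the log2 fold change was -0.22 (SE 0.30, 95% CI -0.85 to 0.42, adjusted p = 0.695), and it turned to 0.18 when the trend with gene length was removed from each library. The interval for Smad5 allows a level between 55.3% and 133% of the naïve level.

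Smad4 (Entrez 17128, chromosome 18, 73634790 to 73703791), the common partner of both BMP and TGFβ Smads, was the most abundant of the 10. It had 125, 92.8, 110, 102 and 134 CPM in pre-exposed mice and 197, 186, 130, 196 and 138 CPM in naïve mice, or 113 ± 16.8 and 170 ± 32.6 CPM (mean ± SD, n = 5 each). Only pre-exposed mouse 5 reached the naïve range, where naïve mice 3 and 5 lay well below the other three. The log2 fold change was -0.59 (SE 0.22, 95% CI -1.05 to -0.13, adjusted p = 0.108), or 66.4% of the naïve level. It was -0.69 without pre-exposed mouse 5 (adjusted p = 0.0391), -0.80 with mice 2 to 4 alone (0.0108), -0.34 with mice 1 and 5 alone (0.587) and -0.32 with the length trend removed (0.486).

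The inhibitory Smads stood apart from each other. Smad7 (Entrez 17131, chromosome 18, 75367365 to 75395935), which blocks type I receptors of both branches and recruits the Smurfs to them, had 28.8, 24.5, 31.0, 29.3 and 36.2 CPM in pre-exposed mice and 22.8, 25.3, 30.6, 31.7 and 28.5 CPM in naïve mice. The groups lay over each other, with pre-exposed mouse 5 the highest and naïve mouse 1 the lowest. Its log2 fold change was 0.11 (SE 0.23, 95% CI -0.37 to 0.59, adjusted p = 0.811), so levels from 77.1% to 150% of naïve are inside the interval. With the length trend removed the log2 fold change of Smad7 was 0.48 (SE 0.21, adjusted p = 0.258).

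Smad6 (Entrez 17130, chromosome 9, 63953076 to 64022085), the inhibitor more selective for the BMP branch, had no count in any of the 5 pre-exposed libraries and 4 counts in the naïve libraries, 3 in mouse 3 and 1 in mouse 4. A count of 0 allows up to 3 counts, or 0.146 to 0.545 CPM in the pre-exposed libraries, and this limit covers counting error only. Both groups were therefore at or near the limit, and no fold change is given. Unlike Bmpr2, Smad6 was counted over the whole of its longest annotated transcript (2971 bases).

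The Smurfs, HECT-type ubiquitin ligases, were lower in estimate without passing the test. Smurf1 (Entrez 75788, chromosome 5, 144876495 to 144965899) had 25.9, 9.98, 12.7, 29.1 and 10.9 CPM in pre-exposed mice and 14.5, 21.9, 35.4, 30.5 and 42.2 CPM in naïve mice. Pre-exposed mice 2, 3 and 5 were below every naïve mouse, and mice 1 and 4 were at the naïve level. Smurf1 had a log2 fold change of -0.69 (SE 0.37, 95% CI -1.49 to 0.10, adjusted p = 0.271).

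Smurf2 (Entrez 66313, chromosome 11, 106820061 to 106920747) had 42.1, 24.9, 44.3, 22.7 and 46.5 CPM in pre-exposed mice and 56.3, 52.6, 67.1, 39.1 and 35.4 CPM in naïve mice. Pre-exposed mice 2 and 4 were the lowest of all, and the other three lay between naïve mice 4 and 2. Its log2 fold change was -0.48 (SE 0.28, 95% CI -1.08 to 0.11, adjusted p = 0.301). With mice 2 to 4 alone it was -0.78 with an adjusted p of 0.0466, and with mice 1 and 5 alone -0.13.

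**Figure D2:**
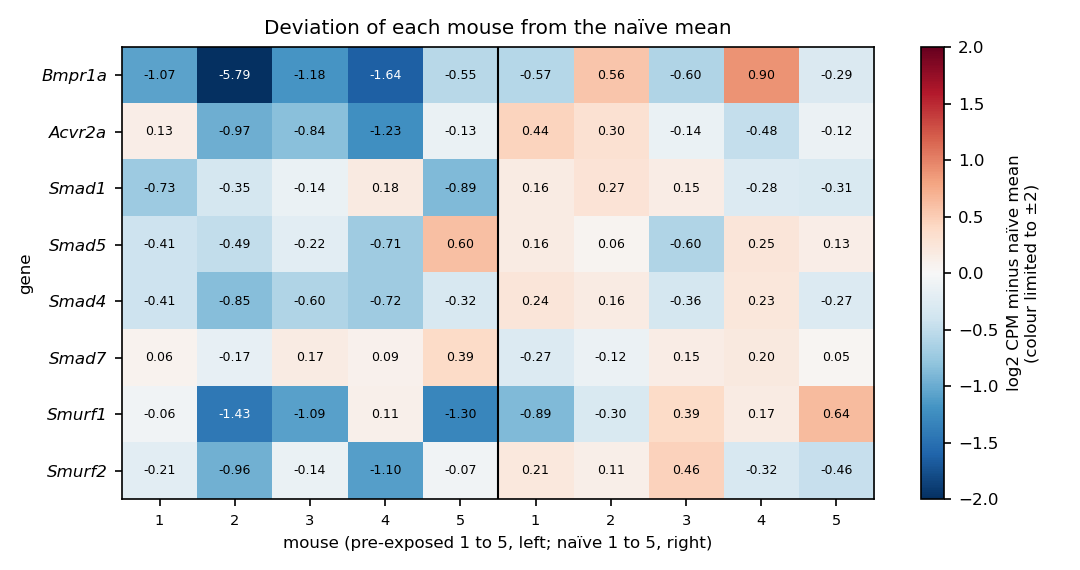
Difference in log2 CPM (prior count of 2) between each mouse and the mean of the naïve mice, for the 8 tested genes (rows), with pre-exposed mice 1 to 5 left of the line and naïve mice 1 to 5 right of it; blue is below and red above the naïve mean, with the colour limited at 2 units. Bmpr1a in pre-exposed mouse 2 is the lowest cell (-5.79). Bmpr1a, Smad4 and Smurf2 are below the naïve mean in all 5 pre-exposed mice, and Smad7 varies little in any mouse.

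Averaged over the 8 tested genes and centred on all 10 mice, the log2 level was -0.025, -1.06, -0.19, -0.32 and 0.029 in pre-exposed mice 1 to 5, and 0.25, 0.44, 0.24, 0.40 and 0.24 in naïve mice 1 to 5. Every naïve mouse was above every pre-exposed mouse on this mean, which is a description of genes chosen with these results known. With the length trend removed from each library the values were -0.13, -0.54, 0.024, -0.25 and 0.22 in pre-exposed mice and 0.08, 0.26, 0.06, 0.19 and 0.09 in naïve mice. The groups then overlapped, since pre-exposed mouse 5 lay above 4 of the 5 naïve mice. Over the 8 genes the median log2 fold change was -0.20 with the length trend removed, -0.23 with mice 1 and 5 alone and -0.79 with mice 2 to 4 alone. In the comparison of mice 2 to 4 with the naïve mice, 4 of the 8 were called lower (Bmpr1a, Acvr2a, Smad4 and Smurf2), where 14.9% of all tested genes were called lower and 14.9% higher. Infection and label style cannot be told apart in this comparison. With both the restriction to mice 2 to 4 and the length correction, a combination added after seeing the data, 0 of the 8 were called, where 16.3% of all tested genes were called and 7.75% were called lower.

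**Figure D3:**
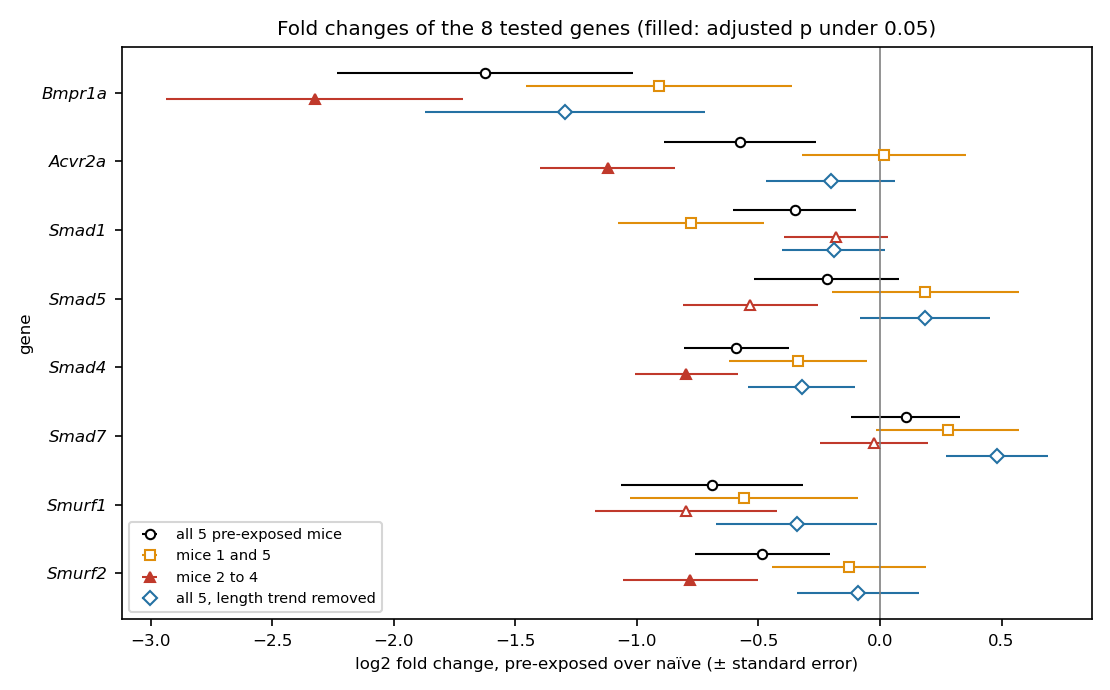
log2 fold change of pre-exposed over naïve mice (x axis, bars ± 1 standard error) for the 8 tested genes, with all 5 pre-exposed mice (black circles), mice 1 and 5 alone (orange squares), mice 2 to 4 alone (red triangles) and all 5 with the gene length trend removed (blue diamonds); filled symbols have an adjusted p under 0.05. Only estimates from mice 2 to 4 alone are filled, for Bmpr1a, Acvr2a, Smad4 and Smurf2, and Smad5 moves across 0.

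Per length of gene, the order of levels was led by the shared partner and not by receptors. In RPKM, which is CPM divided by the counted length in kilobases, the means over all 10 mice were 42.3 for Smad4, 14.9 for Smad1, 8.08 for Smurf2, 6.50 for Smad7, 4.37 for Smurf1, 4.14 for Acvr2a, 2.87 for Smad5, 1.94 for Bmpr1a, 0.173 for Bmpr2 and 0.0108 for Smad6. Smad4 was above Smad1, Smad1 above Smurf2 and Bmpr1a above Bmpr2 in 10 of 10 mice, and Smad7 was above Smurf1 in 9. Smurf1 and Acvr2a had no fixed order, and Smurf1 was the higher in 4 of 10 mice. Smurf2 was above Smad7, Acvr2a above Smad5 and Smad5 above Bmpr1a in 8 of 10 mice each. On these means Smad1 had more reads per length than Smad5, and Acvr2a more than either BMP receptor.

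Likeness between profiles was measured as the root mean square difference of log2 CPM, centred per gene, over the 10 mice. Smad4 was the gene closest to the mean profile of the 8 (0.231), and Bmpr1a was the farthest (1.34). The closest pairs were Smad4 with Smad5 (0.328) and Acvr2a with Smurf2 (0.344). Of the other tested genes, the 5 closest to the mean profile were Ctnnb1, which encodes β-catenin (0.127), Rap1gds1 (0.137), Marchf7 (0.140), Rcbtb1 (0.150) and Ing5 (0.150). With the length trend removed these were Med14, Sppl3, Mark3, Ppp3ca and Ubr1 (0.122 to 0.145), none of them among the first 5.

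Around these genes, a list of 159 other genes of the BMP and TGFβ pathways gave 87 tested genes, of which 3 rose and 1 fell in pre-exposed mice, against 5.12% and 1.18% of all tested genes. The median log2 fold change of the 87 was -0.16, with 54 below 0. Lefty1, Rnf165 and Jun were higher and Itgae was lower. The list was written from general knowledge of the pathway with earlier results of these data known.

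Of 4 tested ligands of the BMP and activin family, 1 rose. Lefty1 (Entrez 13590), a divergent family member that inhibits Nodal signalling, had 2.09, 5.79, 3.26, 2.71 and 5.09 CPM in pre-exposed mice and 0.147, 0.569, 0.0673, 0.118 and 0.289 CPM in naïve mice. All 5 pre-exposed mice were above all naïve mice, at low counts of 22 to 119 against 1 to 11. The log2 fold change was 3.79 (SE 0.57, adjusted p = 0.00322), and the call held without each library in turn.

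Among 16 other ubiquitin ligases and deubiquitinases of the pathway, Rnf165 (Entrez 225743), also called Arkadia2 and known to enhance BMP signalling in motor neurons of mice, rose. It had 0.380, 1.61, 4.14, 4.44 and 4.36 CPM in pre-exposed mice and 0.514, 0.207, 1.28, 0.354 and 0.289 CPM in naïve mice. Pre-exposed mouse 1 was at the naïve level and the other four were above it. The log2 fold change was 2.37 (SE 0.66, adjusted p = 0.0449), and the call was lost without any 1 of pre-exposed mice 2, 3 and 4 or naïve mice 1, 2, 4 and 5, with estimates of 2.08 to 2.52. It was also lost with library totals, other filters, the older dispersion method, voom, TREAT, the replicate block, the label covariate and mice 1 and 5 alone.

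Of 13 tested target genes of the 2 branches, 1 rose and 1 fell. Jun (Entrez 16476), an AP-1 subunit induced by TGFβ and by many other stimuli, had 942, 516, 536, 675 and 322 CPM in pre-exposed mice and 184, 188, 300.1, 304 and 275 CPM in naïve mice. Its groups did not overlap, the log2 fold change was 1.26 (SE 0.29, adjusted p = 0.0243), and the call was lost without pre-exposed mouse 2 or without naïve mouse 1, 2, 4 or 5. It was also lost with voom (adjusted p = 0.0514), TREAT (0.574), the replicate block (0.105), the label covariate (0.0698) and mice 1 and 5 alone (0.121). Itgae (Entrez 16407), the αE integrin CD103 that TGFβ induces in T cells, had 81.4, 34.2, 38.1, 44.6 and 12.4 CPM in pre-exposed mice and 86.5, 73.4, 105, 147 and 133 CPM in naïve mice. Pre-exposed mouse 1 alone was within the naïve range, the log2 fold change was -1.36 (SE 0.37, adjusted p = 0.0454), and the call was lost without any 1 library other than pre-exposed mouse 1 or 5. It was also lost with the length trend removed (-1.05, adjusted p = 0.127), library totals, upper quartile scaling, the CPM filter, immunoglobulin genes kept, the older dispersion method, voom, TREAT, the replicate block, the label covariate and mice 1 and 5 alone.

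The Id genes, the textbook targets of BMP Smads, were singled out after their values were seen. Id2, needed for the effector state of T cells, had 1414, 1403, 1370.25, 1234 and 5485 CPM in pre-exposed mice and 1673, 1713, 1905, 1589 and 1469.95 CPM in naïve mice, so that pre-exposed mouse 5 was the highest and the other four were below all naïve mice (log2 fold change 0.38, SE 0.38, adjusted p = 0.572). Id3, which restrains E proteins in γδ T cells, averaged 34.9 ± 8.48 CPM in pre-exposed and 33.0 ± 9.28 CPM in naïve mice (SD, n = 5 each; log2 fold change 0.08, 95% CI -0.47 to 0.63). Id1 had too few counts to be tested, with 0 to 32 counts per pre-exposed library and 2 to 5 per naïve library.

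The other groups of the list had no call, and the gene of each with the highest mean over all 10 mice is given. The latency protein Nrros was the most abundant of 8 tested genes for TGFβ ligands and latency (211 ± 94.3 CPM in pre-exposed and 165 ± 33.3 CPM in naïve mice, log2 fold change 0.36). Tgfbr2, the TGFβ type II receptor, was the most abundant of 9 other receptors and coreceptors, with 114 ± 55.1 CPM in pre-exposed and 197 ± 30.8 CPM in naïve mice and a log2 fold change of -0.79 (SE 0.29, adjusted p = 0.109). Its low values were those of pre-exposed mice 2 to 5 (65.1 to 111 CPM), and mouse 1 (206 CPM) was inside the naïve range. Without mouse 1 it was -1.12 (adjusted p = 0.0105). Fkbp1a, which binds type I receptors, had a log2 fold change of 0.39 (adjusted p = 0.317) among 12 other Smads and anchoring proteins. Twsg1, a BMP-binding extracellular protein and over all 10 mice the most abundant of 4 tested antagonists (in pre-exposed mice alone Sostdc1 averaged more, 21.6 CPM against 16.9 CPM for Twsg1), had 5.69 to 24.9 CPM in pre-exposed and 25.6 to 37.3 CPM in naïve mice, which did not overlap, with a log2 fold change of -0.86 (SE 0.35, adjusted p = 0.140). Ncor1, a corepressor, led 21 nuclear partners with 510 ± 219 CPM in pre-exposed and 557 ± 48.9 CPM in naïve mice (log2 fold change -0.13).

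**Figure D4:**
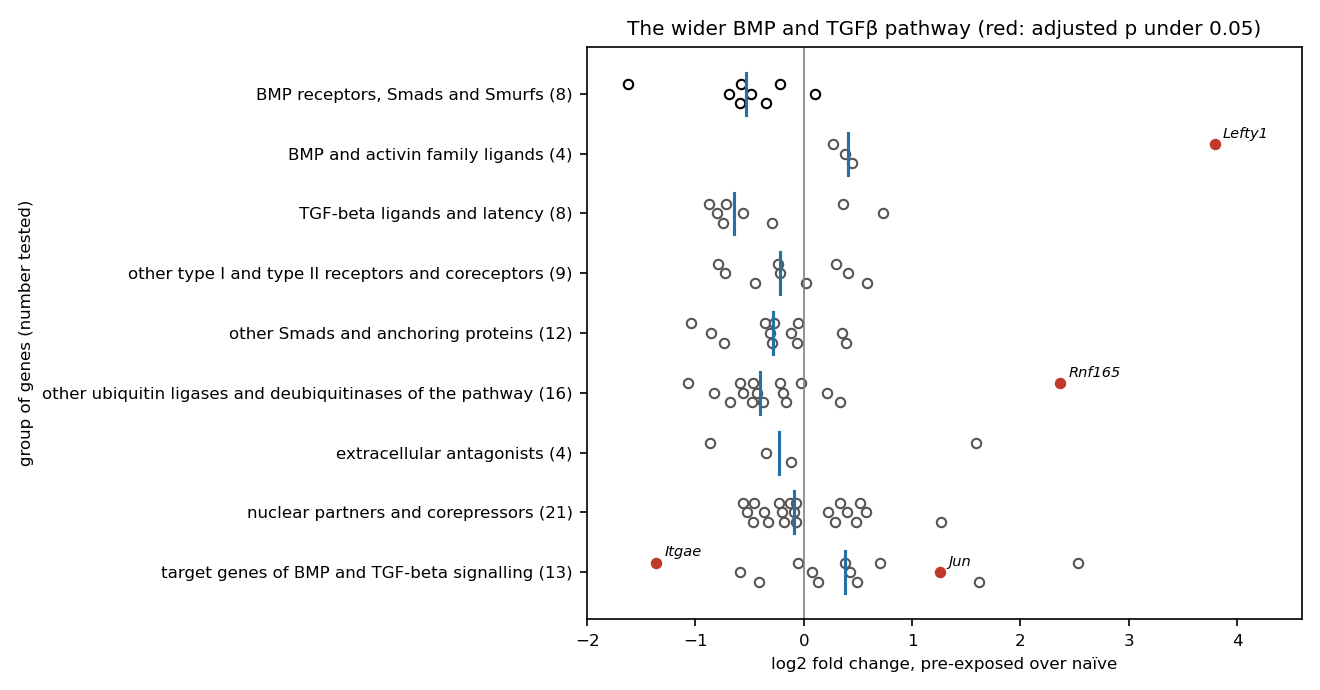
log2 fold change of pre-exposed over naïve mice (x axis) for the 8 tested BMP receptors, Smads and Smurfs (top line) and the 87 tested genes of the wider pathway in 8 groups (number tested in parentheses), with 1 circle per gene, the median of each group as a blue bar, and genes with an adjusted p under 0.05 filled in red. Lefty1, Rnf165 and Jun lie to the right of 0 and Itgae to the left, and the top line has 7 genes left of 0, none filled.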

How the data were processed

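The authors aligned reads to mm10 and counted them per Entrez ID with featureCounts, and the deposited values are whole-number counts without normalization. The library kit is named differently in the study's methods (SMART ultra-low) and in the labels (TruSeq). The strand setting, and the versions of the aligner and counter, are not given in the sources used. Groups and replicates came from the labels.

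Genes were filtered with filterByExpr (13534 kept), then those lacking a symbol (767) and immunoglobulin genes (112) were dropped. TMM-scaled counts were tested by the quasi-likelihood test of edgeR 4.0.16 (robust, legacy FALSE, R 4.3.3) on all 10 libraries, adjusted by Benjamini and Hochberg at 0.05. SE is the log2 fold change over the root of F. Alternatives were DESeq2 1.42.0, limma 3.58.1 (voom, TREAT), other scalings and filters, a label covariate, a loess correction for gene length (span 0.3) and fewer libraries. The code was tested on simulated data. Libraries of a group differed beyond counting noise, so none was merged. P-values measure the spread between libraries, each a mouse by its label.

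All 10 genes are named. Of each pathway group, genes past the threshold are named, or else its most abundant gene. The genes and lists were chosen with earlier results of these data known.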

Additional observations from a re-analysis of the deposited data

Results flagged for a closer look

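Within a group of 5 mice, a value was set aside for a closer look when its gap to the nearest other mouse took more than 0.71 of the range of the group (Dixon's limit for 5 values). Of 19 groups of values examined over the 10 genes, 2 met this, both for Smad5, where chance gives about 5% of groups. Smad5 was 32.7 CPM in pre-exposed mouse 5, against 13.1 to 18.5 CPM in the other pre-exposed mice. It was 14.2 CPM in naïve mouse 3, against 22.5 to 25.6 CPM in the other naïve mice.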

How the results depend on the processing

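None of the 8 tested genes was called under 3 other scalings, 2 other filters (10 tested without a filter), the older edgeR dispersion method, DESeq2, voom with limma or TREAT, a replicate block, a label covariate, the length correction, or with immunoglobulin genes kept. The calls were 4 with pre-exposed mice 2 to 4 only (all lower, where 14.9% of all tested genes were called lower). They were 0 to 2 without each library in turn (2 without pre-exposed mouse 5, both lower, where 5.61% of all tested genes were called lower). Of the estimates of the 8 genes under the alternatives, 211 kept their direction and their side of the threshold, 6 gained a call and 7 turned sign. Smad5 turned to 0.13 with the label covariate, 0.18 with the length trend removed, 0.17 with this and the replicate block, 0.19 with mice 1 and 5 only and 0.19 with mice 2 to 4 and the length trend removed. Acvr2a turned to 0.016 with mice 1 and 5 only, and Smad7 to -0.026 with mice 2 to 4 only. The cause was not tested.

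The 4 calls of the pathway list are given below for other settings, with the share of all tested genes called in parentheses. They became 2 with library totals only (4.73%), 2 with a minimum of 1 CPM in 5 libraries (4.76%) and 2 with the older dispersion method (2.83%). They became 1 with voom and limma (0.759%), 0 with TREAT (0.0158%) and 1 with TREAT and quality weights (2.27%). The label covariate left 1 (0.316%), the replicate block 1 (0.435%), and the block with the length trend removed 1 (0.142%). There were 0 with mice 1 and 5 only (0.182%), 31 with mice 2 to 4 only (29.8%) and 21 with mice 2 to 4 and the length trend removed (16.3%). Without each library in turn there were 1 to 16 (16 without pre-exposed mouse 5, 14.8%). Lefty1 lost its call with TREAT (adjusted p = 0.184) and with mice 1 and 5 only, and its adjusted p ranged from 1.09e-05 to 0.184. The study's own list of called genes, made with voom and TREAT, holds Lefty1 as higher and Itgae as lower. TREAT with quality weights called Lefty1 (4.02, adjusted p = 0.0112) but not Itgae (-1.46, adjusted p = 0.0537). Why TREAT without weights did not call these genes here was not tested. Of the genes without a call, Tgfbr2 gained one without pre-exposed mouse 1, with mice 2 to 4 only (-1.29, adjusted p = 0.000741) and with mice 2 to 4 and the length trend removed (0.0134), Nrros in the last 2 settings (0.0473 and 0.0175), and Fkbp1a (0.0416) and Twsg1 (0.0219) with mice 2 to 4 only. Nrros turned to -0.27 with the label covariate and -0.23 with mice 1 and 5 only, Fkbp1a to -0.044 with the label covariate, and Ncor1 to 0.24 with the label covariate, 0.26 with the length trend removed, 0.23 with this and the block, 0.30 with mice 1 and 5 only and 0.37 with mice 2 to 4 and the length trend removed. Replicate numbers did not pair the mice (correlation of same-numbered deviations -0.26 to 0.05), and the replicate block gave 55 calls over all genes.

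Calls over all genes were 797 in edgeR, 1350 with DESeq2, 96 with voom and limma, 2 with TREAT and 287 with TREAT and quality weights. They were 40 with the label covariate, 214 with the length trend removed, 23 with mice 1 and 5 only and 3777 with mice 2 to 4 only. Bmpr2 and Smad6 had too few counts for a fit under the filter, and the cause was not tested. Without the filter Bmpr2 had a log2 fold change of -2.03 (adjusted p = 0.265).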

Other observations

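The ratio of Smad7 to Smad4, the inhibitor over the common partner, was looked at after the values were seen and is given without a test. In reads per kilobase it was 0.173, 0.199, 0.211, 0.217 and 0.203 in pre-exposed mice 1 to 5, against 0.0872, 0.102, 0.177, 0.121 and 0.155 in naïve mice 1 to 5. Pre-exposed mouse 1 alone lay within the naïve range, just below naïve mouse 3.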
